A study of Mus musculus with 2 samples.

Results

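The 9 genes described here are the mouse granzymes Gzma, Gzmb, Gzmc, Gzmd, Gzme, Gzmf, Gzmg and Gzmk and the perforin gene Prf1, taken by symbol from the 32285 genes counted. They were read in 2 single-cell RNA sequencing libraries of tumours grown from 4T1, an established mouse mammary carcinoma cell line injected in Matrigel and saline buffer into the mammary fat pad. One library came from mice given β-elemene, a plant sesquiterpene, by daily intraperitoneal injection at 30 mg/kg, and the other from mice given an equal volume of normal saline, called vehicle in the sample title. Tumours were taken after 18 days in both arms. The host strain, the age of the mice and the number of tumours in each library are not given in the labels, so each arm is 1 sample, no test between the arms was possible, and every difference below is between these 2 libraries.

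Perforin and granzymes are the working parts of the cytotoxic granule of killer lymphocytes. After contact with a target cell the granule is released into the synapse, perforin inserts into the target membrane as a pore, and the granzymes, which are serine proteases, pass into the target and cleave proteins there. Granzyme B cleaves after aspartate and starts apoptosis through caspases, granzymes A and K cleave after basic residues, and the substrates of granzymes C to G, a set expanded in rodents, are less well known. In mouse tumours CD8 T cells and natural killer (NK) cells are the usual sources, and granzymes C to G are best known from strongly activated T cells and from the NK cells of the pregnant uterus.

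Cell types were rebuilt by clustering with the 9 genes left out of the clustering, and named from marker lists. The names carry "-like" for this reason, and the genes that define a cluster are no result. CD8 T-like cells numbered 266 in the vehicle library and 284 in the β-elemene library. Cd3g, a T cell receptor signalling chain, had a unique molecular identifier (UMI, 1 captured transcript) in 81.2% and 85.2% of them, and Cd8a in 63.2% and 61.6%. NK-like cells numbered 44 and 72. Their receptor gene Ncr1 had a UMI in 61.4% and 75.0% of them, and Cd8a in 0 of 44 and in 1.39%, although Cd3g was found in 22.7% and 27.8%, so the label was not free of a T cell marker. Median UMIs per cell were 4052 and 4373 in CD8 T-like cells, and 3536.5 and 6170.5 in NK-like cells, where the β-elemene library was therefore deeper per cell. Fibroblast-like cells numbered 652 and 647, with median depths of 20792.5 and 21830 UMIs and Col1a1, the main fibrillar collagen chain, in 99.2% and 98.9%. The libraries shared 37 cell barcodes of 10455 and 10564 cells kept.

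The genes Gzmb to Gzmg lie together on chromosome 14 (GRCm38, GENCODE vM21), all on the minus strand, with 5 exons each. From low to high coordinates the 6 are Gzme (56117626 to 56120625), Gzmd (56129556 to 56132608), Gzmg (56156582 to 56159579), Gzmf (56205263 to 56211417), Gzmc (56231441 to 56234656) and Gzmb (56258838 to 56262260). This run of genes spans 144.635 kb and also holds Gzmn, a granzyme known from germ cells, between Gzmg and Gzmf. Mcpt8, a basophil protease, and Ctsg, which encodes cathepsin G of neutrophils, lie beyond Gzme. Gzma lies on chromosome 13 (113093825 to 113100981, minus strand), where Gzmk also lies, and Prf1 on chromosome 10 (61297833 to 61304680, plus strand). The longest coding transcripts of Gzmd and Gzme were 95% identical, Gzmd and Gzmg 90.6%, and Gzmc and the other 4 genes from Gzmd to Gzmg 79.7% to 81.2%. In the last 300 bases of these transcripts, which a 3′ assay reads most, no stretch of 90 bases was shared between any pair of them. Reads could still be split between such near copies by the counting, so the levels of Gzmd, Gzme and Gzmg are less certain one by one than as a group. Gzmf is overlapped by an antisense gene, Gm4022, and whether the counting used strand is not given in the sources used here.

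The 250 bases before the start of these genes are shown because all but 1 of the CD8 T-like cells with Gzmd also had Gzmf, and all the β-elemene NK-like cells with Gzmd, Gzme or Gzmf also had Gzmc, as described further on, while Gzmb, next to them, was in many more cells. The sequences are RefSeq's for GRCm38.p6, read 5′ to 3′ on the gene's strand. Bases that GENCODE counts as transcribed were trimmed, and the RefSeq start of Gzmb lies outside the GENCODE gene. Capitals mark TGTGGT or its reverse complement ACCACA, the core letters bound by Runx factors, and in Gzmb also TGAGTCA, a form of the AP-1 site.
Gzme, chr14:56120626-56120875, minus strand: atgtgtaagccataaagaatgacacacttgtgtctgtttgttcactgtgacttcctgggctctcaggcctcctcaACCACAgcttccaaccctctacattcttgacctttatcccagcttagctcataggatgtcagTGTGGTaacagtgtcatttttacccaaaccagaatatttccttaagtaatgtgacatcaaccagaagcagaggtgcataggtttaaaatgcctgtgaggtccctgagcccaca
Gzmd, chr14:56132609-56132843, minus strand: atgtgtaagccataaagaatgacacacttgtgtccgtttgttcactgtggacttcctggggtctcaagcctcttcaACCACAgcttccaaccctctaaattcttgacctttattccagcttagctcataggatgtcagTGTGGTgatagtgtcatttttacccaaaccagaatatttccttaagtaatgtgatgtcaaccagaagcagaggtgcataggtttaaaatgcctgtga
Gzmf, chr14:56211418-56211657, minus strand: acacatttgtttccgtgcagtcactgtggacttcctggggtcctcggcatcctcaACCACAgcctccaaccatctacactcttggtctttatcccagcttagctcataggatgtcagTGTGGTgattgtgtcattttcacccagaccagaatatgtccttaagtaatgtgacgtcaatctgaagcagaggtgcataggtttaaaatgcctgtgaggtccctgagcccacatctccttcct
Gzmc, chr14:56234658-56234907, minus strand: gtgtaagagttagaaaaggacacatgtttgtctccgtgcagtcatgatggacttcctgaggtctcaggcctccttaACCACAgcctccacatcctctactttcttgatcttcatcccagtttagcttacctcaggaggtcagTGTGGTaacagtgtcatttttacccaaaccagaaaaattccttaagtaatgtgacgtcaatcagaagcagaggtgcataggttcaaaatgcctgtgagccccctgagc
Gzmb, chr14:56262335-56262584, minus strand: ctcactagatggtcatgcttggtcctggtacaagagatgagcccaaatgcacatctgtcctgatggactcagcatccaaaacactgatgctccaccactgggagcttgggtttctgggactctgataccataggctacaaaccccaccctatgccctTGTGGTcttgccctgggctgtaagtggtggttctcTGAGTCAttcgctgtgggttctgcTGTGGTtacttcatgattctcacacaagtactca
Matched bases were counted as a share of the length of the shorter window, not of the aligned bases. By that measure the Gzme and Gzmd windows matched at 95.3% and the other pairs among Gzmc to Gzmg at 80.8% to 87.9%. Gzmb matched each of the 5 at 34.0% to 49.4%. TGTGGT was searched on both strands and was found 2 times in each of the 6 windows, 1 time in each direction in Gzmc to Gzmg and both times in the reading direction in Gzmb. Of all 32851 promoter windows of 250 bases, 14% held it at least 1 time and 1.27% at least 2 times. TGANTCA, the AP-1 site, which reads the same on both strands, was among the 6 in the Gzmb window only and was in 6.75% of all windows. Also searched on both strands and in none of the 6 were the TATA box core TATAAA (12.4% of all windows), the T-box core GGTGTG (16.3%) and the STAT site TTCNNNGAA (7.02%). A match is a description of letters, and the binding of a factor was not measured here.

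Levels are given as CPM, the UMIs of a gene in all cells of a type scaled to 1000000 UMIs of those cells. Across 15 named cell types the killer lymphocytes held the highest level of every member. Gzma, the tryptase, was highest in NK-like cells at 3127 CPM in the vehicle library and 2343 in the β-elemene library, above CD8 T-like cells at 706 and 669. Dividing T-like cells came next at 312 and 816, a range that overlaps CD8 T-like cells. Gzmc was also highest in NK-like cells, at 1976 and 4906 CPM against 215 and 125 in CD8 T-like cells.

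Gzmb, the apoptosis-starting granzyme, was highest in CD8 T-like cells at 917 and 812 CPM. Dividing T-like cells followed at 617 and 686, and NK-like cells held 453 and 537, with the γδ T or innate lymphoid-like cells at 757 and 266, a spread that overlaps both. Regulatory T-like cells also had it, at 380 and 273 CPM. Gzmk was highest in CD8 T-like cells at 121 and 86.6 CPM, did not separate from dividing T-like cells (73.8 and 79.9) by more than the spread between the libraries, and was at 15.3 and 9.19 CPM in NK-like cells. Prf1, the pore former, was highest in NK-like cells at 148 and 338 CPM, then in CD8 T-like cells at 104 and 78.3.

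The order of the other chromosome 14 genes depended on the library. Gzmf held 870 and 695 CPM in CD8 T-like cells, against 10.2 and 787 in NK-like cells, so the cell types overlapped. Gzme did not separate NK-like cells (35.6 and 153 CPM), CD8 T-like cells (95.4 and 38.4) and fibroblast-like cells (37.8 and 84.5), because the ranges of all 3 overlapped. By UMIs rather than by level, fibroblast-like cells held 74.0% and 84.7% of all Gzme UMIs and 35.4% and 47.0% of all Gzmd UMIs, since they were far more numerous and deeper per cell. Conversely, CD8 T-like cells held 88.1% and 64.0% of all Gzmf UMIs.

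**Figure D1:**
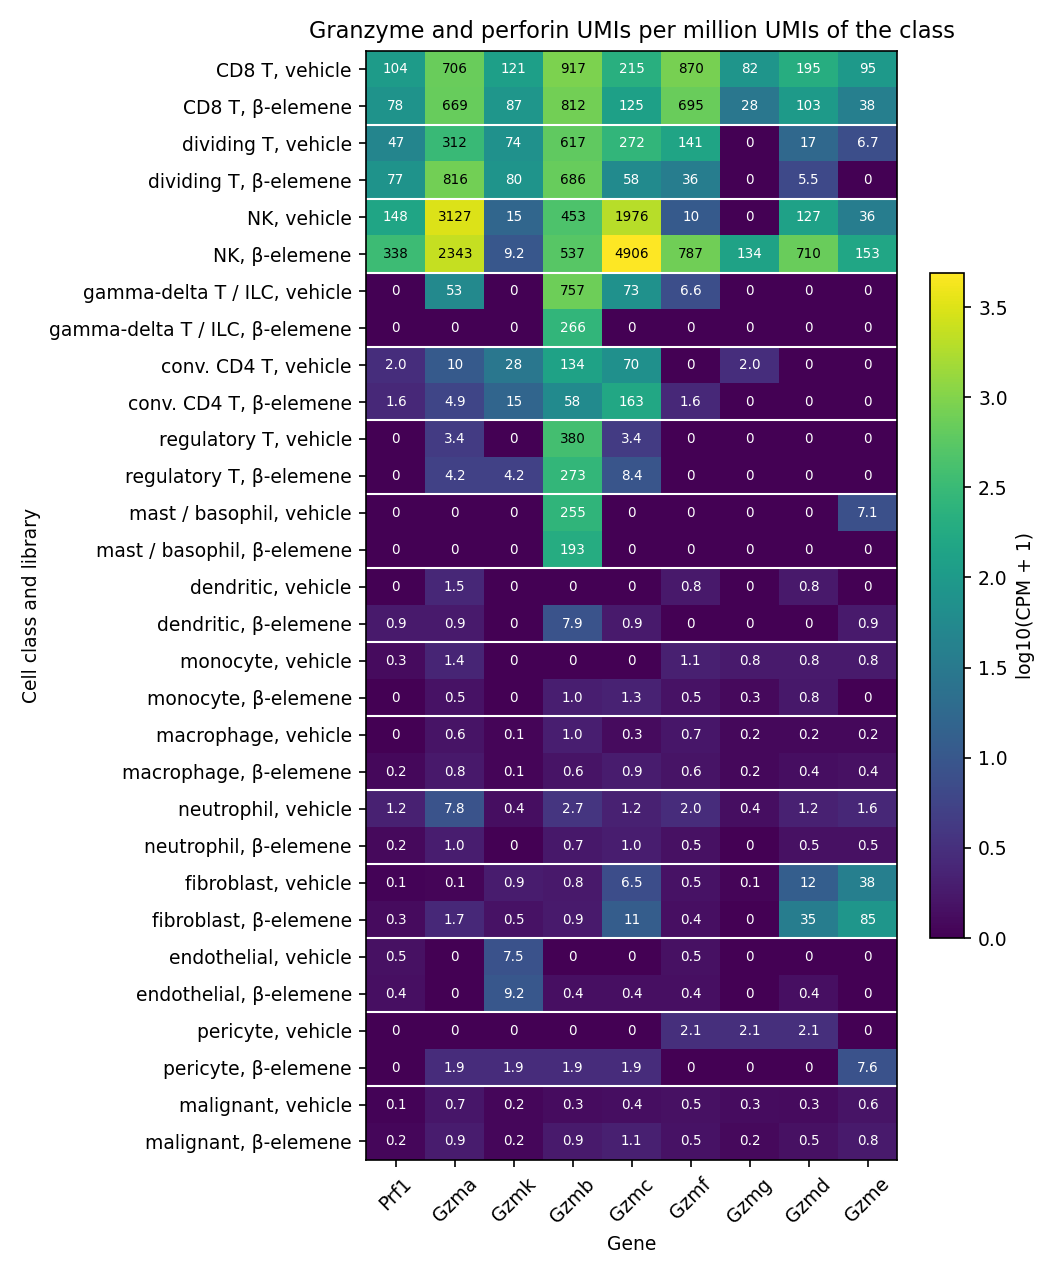
Level of each of the 9 genes in 15 cell types, as log10 of CPM plus 1, with the vehicle and the β-elemene library side by side. NK-like and CD8 T-like cells carry the highest levels, and Gzme and Gzmd also have a level in fibroblast-like cells, which for Gzme lies within the range of the lymphocyte levels.

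Cell types taken not to make granzymes were used as a background, and whether their UMIs came from free RNA was not measured. In malignant cells, which had median depths of 21494 and 22474.5 UMIs, the 9 genes together came to 3.27 and 5.27 CPM. Gzmb had a UMI in 0.756% and 1.16% of malignant cells, Gzma in 1.10% and 1.36%, Gzmc in 0.808% and 2.02%, Gzmk in 0.391% and 0.331%, and Prf1 in 0.235% and 0.364%. Gzme was found in 1.20% and 1.72% of malignant cells. Macrophage-like cells held 3.31 and 4.14 CPM of the 9 together. The levels in CD8 T-like and NK-like cells lay above those of malignant and macrophage-like cells in both libraries. Gzmg in NK-like cells of the vehicle library, with 0 UMIs, was the exception. Gzmc, Gzmd and Gzme in fibroblast-like cells also lay above those levels in both libraries. Endothelial-like cells held 7.55 and 9.20 CPM of Gzmk, which NK-like cells (15.3 and 9.19) did not exceed in the β-elemene library. In other cell types the 9 together were 18.4 and 4.40 CPM in neutrophil-like cells (47 and 18 UMIs) and 5.29 and 4.28 in monocyte-like cells, so the background was higher in the β-elemene library in some types and lower in others. Its part in the differences below was not tested.

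In CD8 T-like cells the 9 genes made up 3306 CPM (3813 UMIs) in the vehicle library and 2635 CPM (3499 UMIs) in the β-elemene library. The ratio of β-elemene to vehicle was 0.797, with an exact 95% interval of 0.761 to 0.835. Intervals here and below are exact Poisson intervals of counts or exact binomial intervals of shares, and they cover counting error only, not the variation between mice. A gene was called higher or lower where both libraries together had at least 50 UMIs, the ratio was past 1.5-fold and its interval left out 1. By that rule 0 of the 9 members were higher and 4 were lower, Gzmc, Gzmd, Gzme and Gzmg, beside 2.25% higher, 3.58% lower and 5.82% either way of the 5342 genes measured in these cells. The calls fell to 0 with each cell thinned to 1000 UMIs, with at most 5 UMIs of a member counted in a cell, or as a mean of per-cell CPM. As that mean the summed ratio was 1.03. The median log2 ratio of the members was -0.48, and that of all genes -0.02.

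The pore former Prf1 had 120 UMIs in the vehicle library and 104 in the β-elemene library in CD8 T-like cells, a ratio of 0.753 (0.573 to 0.987), which is not past the 1.5-fold limit. It was found in 52 cells (19.5%) and in 53 (18.7%). Gzmb had 1058 and 1078 UMIs and a ratio of 0.885 (0.812 to 0.964), again short of the limit. Gzmb was the most widely held member, in 154 cells (57.9%) and in 179 (63.0%). The share was higher by 5.13 percentage points in the β-elemene library, with an interval of -3.02 to 13.2. When each cell was thinned to 1000 UMIs the shares were 42.4% and 36.7%, a difference of -5.72 points (-14 to 2.67), so neither direction was separated from 0.

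Gzma had 814 and 888 UMIs, with a ratio of 0.947 (0.860 to 1.04), and sat in 58 (21.8%) and 54 (19.0%) cells. The highest single cells held 121 and 118 of its UMIs. Gzmk, the other tryptase, had 139 and 115 UMIs, with a ratio of 0.718 (0.556 to 0.927), short of the call limit. It was found in 94 cells (35.3%) of the vehicle library and 66 (23.2%) of the β-elemene library, a difference of -12.1 points (-19.6 to -4.50). After thinning, 13.5% and 9.09% of cells had it, and the interval of that difference, -10.0 to 1.07 points, included 0. Gzmk was thus spread thinly over many cells, with at most 5 and 4 UMIs in one, where Gzma was concentrated in few.

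**Figure D2:**
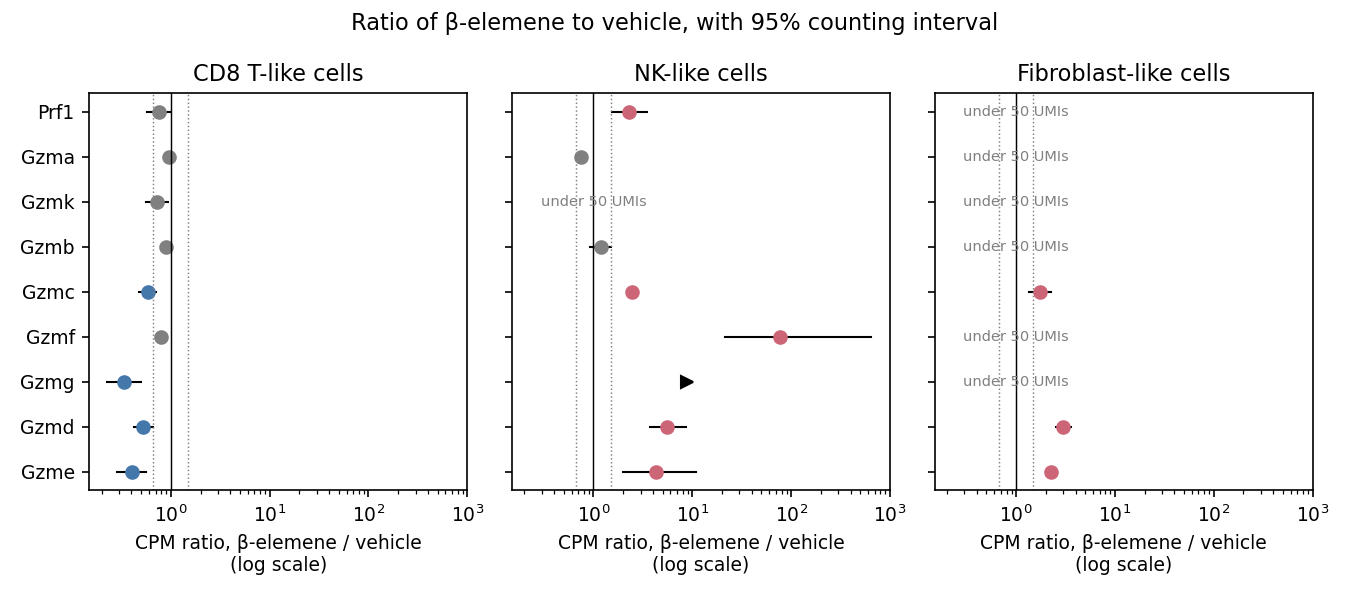
Ratio of the β-elemene to the vehicle library for each member in CD8 T-like, NK-like and fibroblast-like cells, on a log axis, with exact 95% intervals that cover counting error only. The dotted lines mark the 1.5-fold limit, and the triangle marks the ratio of 8.79 for Gzmg in NK-like cells against a floor of 3 UMIs, since the vehicle library had 0 (the exact interval starts at 6.97). Gzmc, Gzmd, Gzme and Gzmg lie below 1 in CD8 T-like cells and above 1 in NK-like cells.

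The 4 members called lower in CD8 T-like cells rested on few cells. Gzmc had 248 UMIs in 20 vehicle cells and 166 UMIs in 25 β-elemene cells, a ratio of 0.581 (0.475 to 0.710). Gzmd had 225 UMIs and 137 UMIs, in 8 cells of each library, a ratio of 0.529 (0.424 to 0.657), and 1 cell held 168 of the 225. Gzme had 110 UMIs in 8 cells and 51 in 7, a ratio of 0.403 (0.283 to 0.566). Gzmg had 95 and 37 UMIs, in 3 cells of each library, a ratio of 0.338 (0.225 to 0.499). The shares of cells with a UMI therefore did not follow the summed levels. Leaving out the cell with most member UMIs in each library left Gzmc alone as lower, with ratios of 1.00 for Gzmd, 0.772 for Gzme and 0.668 for Gzmg.

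Gzmf had 1004 UMIs in 19 vehicle cells (7.14%) and 923 UMIs in 29 β-elemene cells (10.2%). Its ratio of 0.798 (0.729 to 0.874) was also below 1 but short of the 1.5-fold limit. The UMIs of Gzmf were concentrated too, though over more cells than those of Gzmd, Gzme and Gzmg. The highest cells held 190 and 231 UMIs, and the 3 highest held 52.8% and 54.5% of all. Over all 9 genes, the tenth of CD8 T-like cells with the most member UMIs (27 and 29 cells) held 74.0% and 66.2% of them, and 28.6% and 27.8% of cells held none. One vehicle cell carried 512 member UMIs, which is 13.4% of the class total, and one β-elemene cell 374, which is 10.7%. At the extreme, member transcripts made up 5.39% and 8.33% of the UMIs of a single cell.

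**Figure D3:**
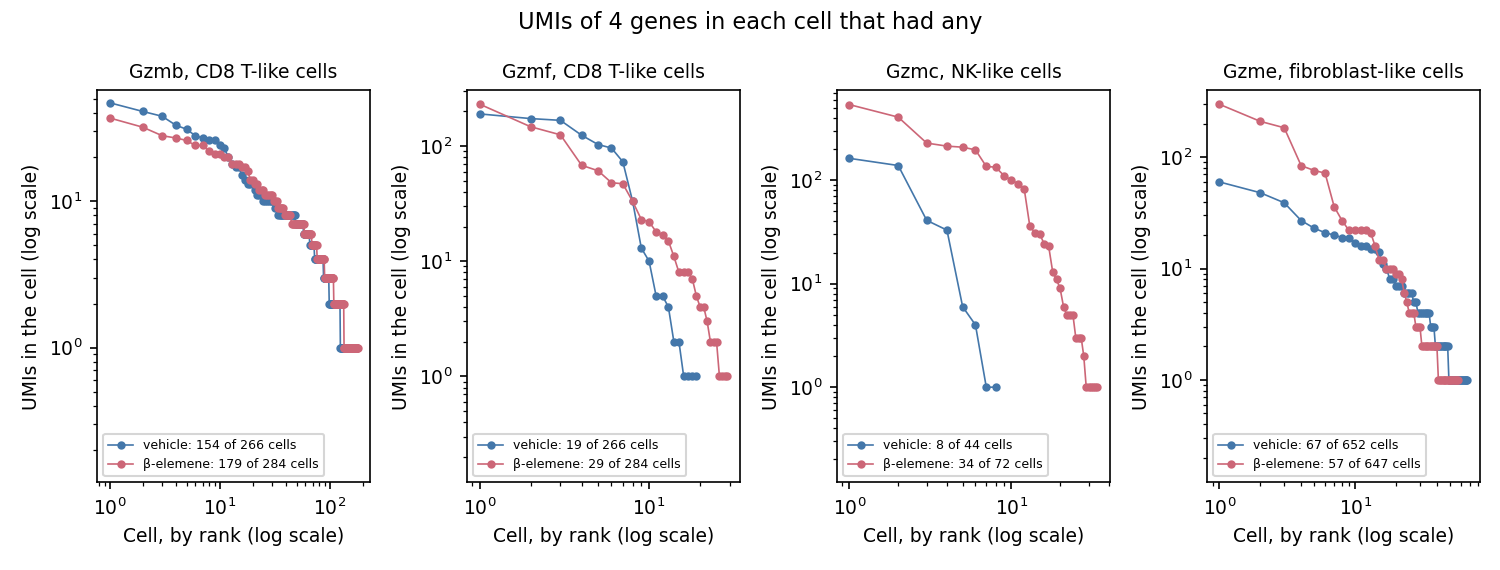
UMIs of Gzmb and Gzmf in CD8 T-like cells, Gzmc in NK-like cells and Gzme in fibroblast-like cells, for every cell that had any, ranked from the highest, on log axes; the legend gives the number of such cells. Gzmb falls gently over 154 and 179 cells, while Gzmf falls from 190 and 231 UMIs over 19 and 29 cells.

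Some members were found together in CD8 T-like cells, but Gzma and Gzmf were not kept apart in the vehicle library. Cells with Gzma tended to have Gzmk, 39 of 58 (67.2%) in the vehicle library and 28 of 54 (51.9%) in the β-elemene library, against 26.4% and 16.5% of cells without Gzma. Cells with Gzmf tended to have Prf1, 57.9% and 55.2% against 16.6% and 14.5% of cells without Gzmf. Gzma was in 4 of the 19 vehicle cells with Gzmf (21.1%, against 21.9% of cells without) and in 2 of the 29 β-elemene cells with Gzmf (6.90% against 20.4%). All but 1 of the cells with Gzmd, 7 of 8 and 8 of 8, had Gzmf as well. Gzmb was in 93.1% and 85.2% of cells with Gzma and in 16 of 19 and 29 of 29 cells with Gzmf. Cells with more UMIs in all show more of any gene, and these shares were not corrected for it.

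The levels were also read by Havcr2, Tcf7 and the receptor genes Pdcd1, Lag3 and Klra5, of which the first 2 are described in full. Gzmf was higher with Pdcd1, Lag3 or Klra5 than without it in both libraries. Gzma was 920 and 588 CPM with Pdcd1 against 520 and 738 without, so its direction differed between the libraries. Gzmf, Klra5 and Havcr2 were among the leading genes of the same sub-cluster, so these splits are not independent. Havcr2 encodes TIM-3, a receptor of chronically stimulated T cells, and was detected in 26 vehicle and 46 β-elemene CD8 T-like cells. The level of Gzmf was 3788 and 2533 CPM in those cells and 320 and 145 in the others. Prf1 was 295 and 196 CPM against 68.0 and 43.0, and Gzmb 1283 and 1203 against 848 and 695. Gzmk ran the other way, at 27.3 and 45.8 CPM with Havcr2 and 138 and 98.8 without, and its share of cells with a UMI was 19.2% and 21.7% against 37.1% and 23.5%. Gzma was 710 and 614 CPM against 705 and 685, but the 710 came from 2 of the 26 cells, and the share of cells with Gzma was 7.69% and 13.0% with Havcr2 against 23.3% and 20.2% without. The cells with Havcr2 were deeper, with medians of 6307 and 6437.5 UMIs against 3787 and 4127, which CPM scales for but detection does not.

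Tcf7 encodes TCF-1, a factor of memory and stem-like T cells, and was detected in 21 and 48 CD8 T-like cells, with median depths of 4297 and 4928.5 UMIs. Those cells had 0 UMIs of Gzmf in both libraries. Their Gzmb level was 256 and 339 CPM against 981 and 922 in the cells without Tcf7, and Gzma, in 4 of these cells in each library, was 334 and 75.7 against 742 and 807. Gzmk was 157 and 51.8 CPM with Tcf7 and 117 and 94.7 without, so its direction differed between the libraries. Tcf7 itself was called higher in the β-elemene library in CD8 T-like cells (ratio 1.79, 1.16 to 2.80).

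In NK-like cells the direction was the opposite. The 9 genes made up 5892 CPM (1157 UMIs) in the vehicle library and 9917 CPM (5393 UMIs) in the β-elemene library, a ratio of 1.68 (1.58 to 1.79). Of the 8 members with enough UMIs, 6 were higher (Prf1, Gzmc, Gzmd, Gzme, Gzmf and Gzmg), 0 were lower, and Gzma and Gzmb were neither, beside 6.78% higher, 8.75% lower and 15.5% either way of the 2287 genes measured. After thinning each cell to 1000 UMIs 1 call was left (Gzmc), and with at most 5 UMIs of a member counted in a cell the summed ratio was 1.01, with Gzmc and Prf1 higher and Gzma lower. The median log2 ratio of the 8 was 1.70, the same with Gzmg set at its ratio against a floor of 3 UMIs, and that of all genes was -0.02. Cells with 3 or more members made up 25.0% of the vehicle and 51.4% of the β-elemene NK-like cells, which were deeper per cell.

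Prf1 had 29 UMIs in the vehicle library and 184 in the β-elemene library, 148 and 338 CPM, a ratio of 2.29 (1.54 to 3.52) for the pore former. It was found in 12 of 44 cells (27.3%) and 39 of 72 (54.2%), a difference of 26.9 points (8.37 to 42.4). After thinning to equal depth the shares were 13.6% and 22.5%, and the interval of the difference, -6.51 to 22.0 points, included 0. Gzmb had 89 and 292 UMIs, with a ratio of 1.18 (0.931 to 1.52), in 50.0% and 59.7% of cells. Gzma had 614 and 1274 UMIs, the most of any member in the vehicle library but not in the β-elemene library. Its ratio of 0.749 (0.680 to 0.826) was the only one under 1 among the measured members, short of the call limit. Gzma was found in 54.5% and 52.8% of cells. Gzmk had 3 UMIs and 5 UMIs and was not compared.

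Gzmc carried most of the difference. It had 388 UMIs in the vehicle library and 2668 in the β-elemene library, 1976 and 4906 CPM, a ratio of 2.48 (2.23 to 2.77). The number of cells with a Gzmc UMI was 8 of 44 (18.2%) and 34 of 72 (47.2%), a difference of 29.0 points (11.3 to 43.3), and after thinning 11.4% and 32.4%, a difference of 21.0 points (5.09 to 34.2). Thinned differences were computed for the 9 members in CD8 T-like, dividing T-like, NK-like, CD4 T-like, regulatory T-like and fibroblast-like cells. That of Gzmc in NK-like cells was the only one with an interval that left out 0. The intervals were not adjusted for their number, and the thinning was a single random draw. Cells with a Gzmc UMI were more frequent in the β-elemene library both before and after thinning. Their median was 19.5 UMIs in the 8 vehicle cells and 18 UMIs in the 34 β-elemene cells. These are raw UMIs, not scaled to the unlike depths, so they do not show a like level. The highest cells held 163 and 539 UMIs. Gzmc made up 33.5% of all member UMIs of NK-like cells in the vehicle library and 49.5% in the β-elemene library, and Gzma 53.1% and 23.6%.

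The 4 genes beyond Gzmc on chromosome 14 were found in few NK-like cells, most of them in the β-elemene library. Gzmd had 25 UMIs in 1 vehicle cell and 386 in 8 β-elemene cells, a ratio of 5.57 (3.72 to 8.72). Gzme had 7 UMIs in 1 cell and 83 in 8, a ratio of 4.28 (1.99 to 11.0). Gzmf had 2 UMIs in 1 cell and 428 in 6, of which 97.7% came from 3, and its ratio of 77.3 had an interval of 21.3 to 640. Gzmg had 0 UMIs in the vehicle library and 73 in 5 β-elemene cells. Its ratio was 8.79 against a floor of 3 UMIs in the vehicle library, and the exact interval starts at 6.97. Its 0 of 44 vehicle cells allows a share of up to 6.82% (3 cells of the total) of cells with a UMI at this depth, which does not limit the share of cells that express it. These ratios depended on the settings: over those tried, Gzmf ranged from 4.15 to 78.2, Gzmd from 2.67 to 61.4 and Gzme from 2.24 to 32.7, and Gzmf was between 10.4 and 19.8 with other choices of cells or after thinning, apart from 1 finer clustering that left it at 77.3. All the β-elemene cells with Gzmd (8 of 8), Gzme (8 of 8) and Gzmf (6 of 6) had Gzmc as well.

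Cells with Gzmc and cells with Gzma overlapped only in part. Gzma was found in 2 of the 8 vehicle cells with Gzmc against 22 of 36 (61.1%) without it, and in 13 of 34 (38.2%) against 25 of 38 (65.8%) in the β-elemene library. Prf1 went with Gzma, which was in 10 of 12 and 29 of 39 (74.4%) of the cells with Prf1. Itga2 encodes CD49b, an integrin of circulating NK cells, and was detected in 13 and 17 of the NK-like cells. Gzma was 7162 and 3478 CPM in those cells against 1962 and 2002 in the others. Gzmc was 22.7 CPM (1 UMI) against 2540 in the vehicle library, and 4819 against 4932 in the β-elemene library, where 5 of 17 and 29 of 55 cells had it. Split by the chemokine gene Xcl1, Gzmc was 3282 CPM with Xcl1 against 12.7 (1 UMI) without in the vehicle library. In the β-elemene library it was 3900 against 6235.

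Eomes, a T-box factor needed for conventional NK cells, was detected in 12 vehicle (27.3%) and 39 β-elemene (54.2%) NK-like cells. Gzmc was 3149 and 7188 CPM in cells with Eomes and 1552 and 1111 in cells without. The vehicle level with Eomes rested on 1 cell, with 163 of the 164 UMIs, and the share of cells with Gzmc there was 16.7% with Eomes and 18.8% without. In the β-elemene library the shares were 53.8% and 39.4%. All β-elemene Gzmf UMIs lay in cells with Eomes, at 1260 CPM against 0. The Eomes level itself had a ratio of 1.62 (0.974 to 2.81) and was not called. Detection of Eomes, Gzmc and the depth per cell were thus all higher in the β-elemene library. Within each library the median depth of the cells with Eomes was not higher, at 3201.5 and 6147 UMIs against 3601.5 and 6466. By the mean, however, the β-elemene cells with Eomes were deeper than those without. The part of Eomes or of depth in the Gzmc difference was not tested.

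T cell markers in NK-like cells did not all move the same way. Cd3g was 112 and 197 CPM (ratio 1.76) and Cd3e 50.9 and 103 (ratio 2.02), both called higher in the β-elemene library. Cd28 (138 and 73.6 CPM), Lck (214 and 184) and Trbc1 (474 and 428) were lower there, and the rest of the list was higher by CPM. All 12 T cell markers together were 1706 and 1848 CPM, with UMIs of 11 and 12 of the 12. The NK marker list together was 3636 and 3746 CPM. Among lymphoid cells chosen by UMIs of Ncr1, Klrb1c or Klre1 and by the absence of Cd3, Cd4 and Cd8 UMIs, the summed ratio of the members was 2.07.

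In the smaller T cell classes few members had enough UMIs. Dividing T-like cells (32 and 38 cells) had 5 measured, of which 1 was higher and 2 were lower, beside 4.34% higher, 5.99% lower and 10.3% either way of 2237 genes. Gzma had 93 and 296 UMIs in 9 and 10 cells, a ratio of 2.61 (2.06 to 3.34). Gzmf had 42 and 13 UMIs, a ratio of 0.254 (0.125 to 0.483), and Gzmc 81 and 21, a ratio of 0.213 (0.125 to 0.347). Gzmb was at 184 and 249 UMIs, with a ratio of 1.11. With so few cells holding each gene, these ratios describe a handful of cells per library.

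Conventional CD4 T-like cells (134 and 138) had 2 members measured, 1 higher and 1 lower, beside 3.64% higher, 5.31% lower and 8.95% either way of 3161 genes. Gzmb had 67 and 35 UMIs, a ratio of 0.429 (0.276 to 0.655), and was found in 25 cells (18.7%) and 11 cells (7.97%). After thinning the shares were 8.66% and 2.99%, and the interval of the difference, -12.1 to 0.138 points, included 0. Gzmc had 35 and 99 UMIs in 5 cells of each library, a ratio of 2.32 (1.56 to 3.52). In regulatory T-like cells (74 and 66), where Gzmb is a known means of suppression, Gzmb had 113 and 65 UMIs, a ratio of 0.718 (0.521 to 0.983) and was not called, beside 5.7% higher, 4.49% lower and 10.2% either way of 1825 genes. It was found in 25 cells (33.8%) and 14 (21.2%). Gzmb was therefore below 1 by ratio in CD8 T-like, CD4 T-like and regulatory T-like cells and past the call rule in the CD4 T-like cells, and whether these ratios differ from one another was not tested.

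Fibroblast-like cells held transcripts of Gzme, Gzmd and Gzmc with few or none of Prf1 and Gzmb. Gzme had 537 UMIs in 67 vehicle cells (10.3%) and 1262 UMIs in 57 β-elemene cells (8.81%), 37.8 and 84.5 CPM, a ratio of 2.24 (2.02 to 2.48). Gzmd had 167 UMIs in 34 cells and 526 in 39, a ratio of 3.0 (2.51 to 3.59). Gzmc had 92 UMIs in 40 cells and 168 in 52, a ratio of 1.74 (1.34 to 2.27). All 3 measured members were called higher and 0 lower, beside 2.37% higher, 3.25% lower and 5.62% either way of 12477 genes, and their median log2 ratio was 1.16 against 0.05 for all genes. The other 6 members were under the UMI minimum: Gzmb had 11 and 13 UMIs, Gzmf 7 and 6, Gzmk 13 and 8, Prf1 1 and 4, Gzmg 2 and 0, and Gzma 2 and 25, of which 19 were in 1 cell.

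The difference in fibroblast-like cells lay in the height of a few cells. The number of cells with Gzme was not higher in the β-elemene library, but its highest cell held 299 UMIs against 60, and its 3 highest cells held 54.9% of the UMIs against 27.4%. Counting at most 5 UMIs of a member in a cell turned the summed ratio of the 3 genes from 2.34 (796 and 1956 UMIs) to 0.952. The highest cells for Gzmd held 26 and 215 UMIs. Gzmd and Gzme sat in the same cells, since 26 of 34 (76.5%) and 30 of 39 (76.9%) cells with Gzmd had Gzme, against 6.63% and 4.44% of cells without it. Gzmc shared them less fully, with Gzme in 52.5% and 53.8% of its cells.

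**Figure D4:**
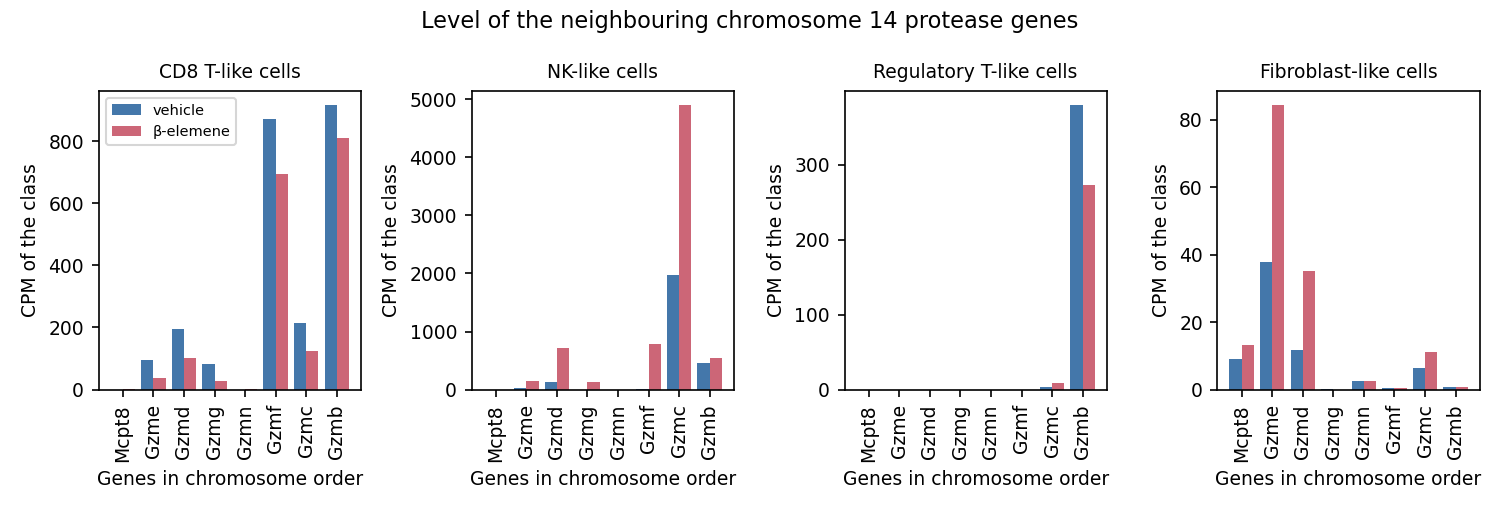
CPM of Mcpt8 and the granzyme genes of chromosome 14, drawn in chromosome order, in CD8 T-like, NK-like, regulatory T-like and fibroblast-like cells of each library. Gzmb is the highest bar in regulatory T-like cells and Gzme in fibroblast-like cells, while Gzmd is higher in CD8 T-like and NK-like cells than in fibroblast-like cells.

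Lymphocyte markers were checked by splitting the fibroblast-like cells at 2 UMIs of Gzmd and Gzme together, which gave 53 vehicle and 48 β-elemene cells against 599 in each library. In the 53 and 48 cells Prf1, Gzmb, Ncr1 and Cd3d had 0 UMIs in both libraries, and Nkg7, a granule protein gene of killer cells, had 0 UMIs and 2 UMIs. Granule genes that other cells also use were present, Srgn in 49.1% and 41.7% of the cells against 49.2% and 56.3% of the others, and Ctsc, which encodes the activating protease cathepsin C, at 72.3 and 67.7 CPM against 43.4 and 34.1. Of the 14 NK markers, 11 and 12 were at 0, and the whole list came to 51.9 and 37.4 CPM against 65.7 and 62.5 in the other fibroblast-like cells. Of the 12 T cell markers 7 were at 0, and the list came to 459 and 528 CPM against 570 and 527, mostly from Thy1, which fibroblasts also express, and Cd3e. Ptprc, the pan-leukocyte CD45 gene, was at 12.3 and 7.13 CPM against 11.4 and 10.5. Depth differed little, with medians of 24139 and 21983.5 UMIs against 20500 and 21829.

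Mcpt8, which lies beyond Gzme on chromosome 14 with Ctsg between them, had a UMI in 41.5% and 39.6% of the same cells. It was at 76.4 and 155 CPM in the 53 and 48 cells and at 1.26 and 1.81 CPM in the others. Ctsg had 0 UMIs in both groups of cells in both libraries. The mast cell and basophil genes Ms4a2 and Fcer1a had 0 UMIs there in both libraries, and Cpa3 had 0 and 1. Gzmc was 37.5 and 114 CPM against 2.90 in the others of both libraries. Over all fibroblast-like cells Mcpt8 had 128 and 199 UMIs, a ratio of 1.48, and Gzmn 37 and 38 UMIs, and neither was called.

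The cells with Gzmd and Gzme had little of the transcripts of universal-type fibroblasts. Dpt, which encodes dermatopontin and marks that type, was 24.6 and 48.1 CPM in them and 499 and 562 in the other fibroblast-like cells. Pi16, a second marker of that type, was 10.2 and 76.6 CPM against 489 and 528. Spp1, which encodes osteopontin, was 9578 and 13349 CPM against 2244 and 2217, and Mmp10, a stromelysin, 145 and 209 against 35.5 and 19.9. Col1a1 was 7397 and 6361 CPM against 8634 and 7327, and Col1a2 7623 and 6367 against 10003 and 8525. Col3a1 was 7674 and 7747 CPM against 13823 and 12058.5. These cells thus held collagen transcripts, with Col1a1, Col1a2 and Col3a1 each at a lower level than in the rest. Other fibroblast markers did not all go that way. Dcn, Pdgfra and Pdpn were lower in both libraries, but Postn was higher, at 2133 and 2021 CPM against 1477 and 1201. Lum was 381 and 773 CPM against 577 and 578.

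Sub-clusters made without the granzymes and their chromosome 14 neighbours placed them further. In sub-cluster 8, led by Serpine2, Sparcl1 and Ecrg4, Gzme was in 15 of 44 vehicle and 21 of 39 β-elemene cells, with 138 and 581 UMIs. Sub-cluster 2, led by contractile genes such as Actg2 and Acta2, held 261 UMIs in 24 of 89 cells and 292 UMIs in 14 of 106, and its CPM was 168 and 123, not higher in the β-elemene library. Sub-cluster 4, led by Krt19 and Mmp10, held 44 UMIs in 9 cells and 303 in 8. Single β-elemene cells held 299, 210 and 184 UMIs of Gzme in sub-clusters 8, 2 and 4. The 3 sub-clusters with most Dpt (0, 3 and 5) had 0 UMIs of Gzme in the vehicle library, in 98, 62 and 59 cells, and 1, 9 and 0 UMIs in the β-elemene library. The difference between the libraries thus sat in sub-clusters 8 and 4 more than in 2, and this was not tested. Sub-clusters 7 and 9 were led by epithelial keratin and neutrophil genes, and without them the summed ratio of Gzmc, Gzmd and Gzme was 2.71 (2.48 to 2.96).

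**Figure D5:**
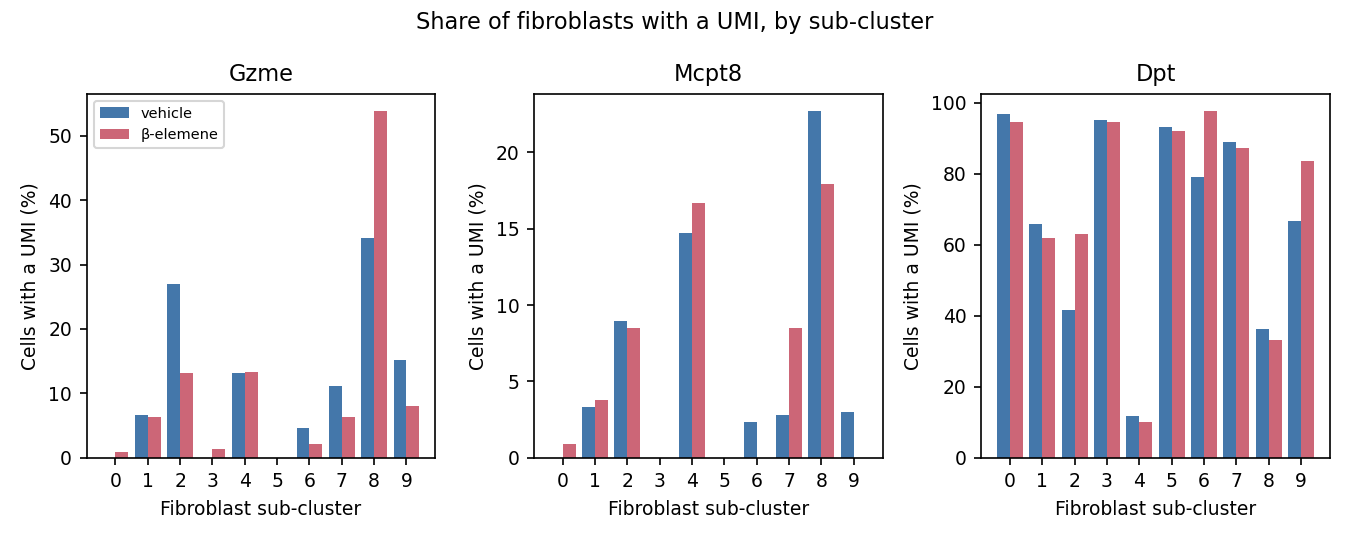
Percent of fibroblast-like cells with a UMI of Gzme, Mcpt8 and Dpt in each of 10 sub-clusters and both libraries. Gzme and Mcpt8 are highest in sub-cluster 8, where Gzme is in 15 of 44 and 21 of 39 cells, and Dpt is highest in other sub-clusters.

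The lists of other pathway genes held calls in both directions in CD8 T-like cells, beside 2.25% higher, 3.58% lower and 5.82% either way of the 5342 genes measured. The median log2 ratios were 0.05 for contents, -0.23 for release (1 of 9 genes above 1), 0.17 for serpins and -0.22 for ligands. They were -0.17 for regulators and -0.02 for both cytokine and inhibitory receptors, beside -0.02 for all genes. Of 8 measured genes for other granule contents 0 were called, among them Nkg7 at 1149 and 1169 CPM, Srgn, the serglycin core that packs granzymes, at 1013 and 1124, and Ctsw at 282 and 273. Of 9 genes for granule release 1 was lower, the fusion protein gene Snap23 (0.487, 0.279 to 0.831). Of 6 genes for death ligands and effector cytokines 1 was higher, the chemokine Ccl4 at 101 and 218 CPM (2.17, 1.75 to 2.72), while Fasl (0.848) and Ifng (0.699) were not called. Of 14 measured regulators, 1 was higher (Tcf7) and 2 were lower, Tox (0.489, 0.384 to 0.621), a factor of exhausted T cells, and Runx3 (0.649, 0.554 to 0.760), a factor that drives killer cell genes. Of 8 cytokine receptor genes 1 was higher, Il7r of memory T cells (1.61, 1.32 to 1.96), and of 7 inhibitory receptor genes 1 was higher, Havcr2 (1.59, 1.10 to 2.32). Of 4 serpins 1 was higher (Serpina3g, 2.27, 1.29 to 4.15), and Serpinb9, the inhibitor of granzyme B, had a ratio of 1.11.

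In NK-like cells these lists also held calls in both directions, beside 6.78% higher, 8.75% lower and 15.5% either way of the 2287 genes measured. Of 5 granule contents genes 1 was higher, the cathepsin inhibitor Cst7 (1.58, 1.01 to 2.58), and of 4 release genes 1 was lower, the lysosome trafficking gene Lyst (0.578, 0.342 to 0.994). Of 5 death ligand and cytokine genes 2 were lower, the chemokine Ccl5 at 5546 and 2302 CPM (0.415, 0.382 to 0.451) and Fasl (0.634, 0.426 to 0.954). Of 4 serpins 2 were lower, Serpina3g (0.495) and Serpinb6b (0.622), and Serpinb9 was at 443 and 325 CPM (0.735). Of 7 cytokine receptor genes 2 were lower, Il18r1 (0.457, 0.337 to 0.622) and Il7r (0.424, 0.234 to 0.774), and of 11 regulators 2 were higher, Id2 (1.73, 1.25 to 2.45) and Nr4a2 (1.56, 1.10 to 2.28). The median log2 ratios were 0.13 for contents, 0.10 for release, 0.19 for ligands, -0.72 for serpins, -0.47 for receptors and -0.23 for regulators, beside -0.02 for all genes. In fibroblast-like cells 0 of 6 measured serpins were called, beside 5.62% either way of the 12477 genes measured.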

How the data were processed

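Single-cell 3′ libraries of dissociated tumours, 1 per arm, were analysed. The authors deposited filtered matrices of raw UMI counts per gene and barcode. The matrix headers name Cell Ranger 7.1.0, and the submitters' processing notes name Cell Ranger, STAR and mm10. Whether the counting used strand is not given in the sources used here. The members and lists were chosen with earlier results of these data known.

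Deposited barcodes (11324 and 11539, with 168750895 and 157282740 UMIs) were kept with at least 200 genes and at most 20% mitochondrial UMIs. Scrublet in scanpy 1.11.5 removed 348 (3.22%) and 297 (2.73%) doublets. Cells were clustered by Leiden (leidenalg 0.10.2, resolution 1.0, seed 7) without the 9 members and named from marker lists; T, NK and fibroblast cells were sub-clustered (1500 genes, 20 components, 15 neighbours). The rule that scored markers for names was set after the clusters were seen. UMIs were summed by cell type and library and divided by all UMIs (CPM). Ratios have exact conditional 95% intervals and share differences Newcombe intervals. Genes named are the 9 members, the genes of the lists that were called and a few examples, and genes that split cells (Havcr2, Tcf7, Itga2, Eomes). Splits were also made by Pdcd1, Lag3 and Klra5 in CD8 T-like cells and by Klra7, Xcl1 and Tyrobp in NK-like cells, and are given in part. The interval code was tested on simulated counts. Alternatives changed the clustering genes, filters, doublets, resolution, class definition, scaling, pseudocount, depth, UMI minimum and single cells. Transcripts were GENCODE vM21 (Biopython 1.88).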

Additional observations from a re-analysis of the deposited data

Results flagged for a closer look

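Gzmc, Gzmd, Gzme and Gzmg differed in opposite directions between the cell types, with β-elemene over vehicle ratios above 1 in NK-like cells and below 1 in CD8 T-like cells. The ratio of Gzmc was 2.48 in NK-like and 0.581 in CD8 T-like cells, that of Gzmd 5.57 and 0.529, and that of Gzme 4.28 and 0.403. For Gzmg the ratio was 8.79 in NK-like cells, with the vehicle library set at the floor of 3 UMIs (exact interval from 6.97), and 0.338 in CD8 T-like cells. With 1 library in each arm, the difference between the cell types was not tested. Gzmd, Gzme and Gzmg sat in at most 8 cells of either type in either library, and in CD8 T-like cells none of these 3 was called once the cell with most member UMIs in each library was left out, with ratios of 1.00, 0.772 and 0.668.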

How the results depend on the processing

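No paired analysis was possible because each arm has 1 library. In CD8 T-like cells the summed ratio of 0.797 was 0.753 with the members kept in the clustering, 0.743 with doublets kept, 0.984 after thinning, 0.931 with at most 5 UMIs counted per member and cell, and 1.03, so reversed, as a mean of per-cell CPM. The 4 members called lower became 0 under the per-cell mean, thinning and the limit of 5 UMIs, 1 (Gzmc) without the highest cell of each library, and 2 (Gzmc and Gzmd) at a minimum of 200 UMIs. The share with Gzmb was 73.5% and 74.7% in cells chosen by marker UMIs, and 42.4% and 36.7% after thinning. In NK-like cells the summed ratio of 1.68 was 2.07 by marker UMIs, 1.37 as a per-cell mean, 1.36 after thinning and 1.01 under the limit of 5 UMIs. The 6 members called higher became 1 (Gzmc) after thinning, and under the limit of 5 UMIs 3 were called, Gzmc and Prf1 higher and Gzma lower. The share with Gzmc in the β-elemene library was 32.4% after thinning. In fibroblast-like cells the summed ratio of 2.34 was 2.64 with doublets kept, 1.99 as a per-cell mean, 1.87 with 10 CPM added, 2.92 after thinning, 1.99 without the highest cell, 2.71 without sub-clusters led by genes of other cell types, and 0.952, so reversed, under the limit of 5 UMIs. The share with Gzme was 2.02% and 2.50% after thinning. Single members that reversed in CD8 T-like cells were Gzmd (1.01 as a per-cell mean, 1.00 without the highest cell), Gzme (1.5 and, thinned, 1.15), Gzmf (1.18, thinned 1.21, limit of 5 UMIs 1.40), Gzmg (1.23) and Prf1 (1.01 by marker UMIs), and in fibroblast-like cells Gzme (0.784 under the limit). Of members whose interval held 1, Gzma in CD8 T-like cells (0.947) was 1.11 as a per-cell mean and 1.12 after thinning, and Gzmb in NK-like cells (1.18) was 0.722 under the limit. Gzmc stayed above 1 in NK-like cells in 12 of 12 settings (1.60 to 4.23), and in CD8 T-like cells ranged from 0.556 to 0.998, the last under the limit of 5 UMIs, where the difference was gone. The limit of 5 UMIs and the fibroblast settings were chosen after seeing the data. The per-cell mean, the limit and the left-out cell weigh down cells with many UMIs by construction, and thinning leaves fewer UMIs; other causes were not tested.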

Other observations

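Gzmk, a lymphocyte gene by its level, also had UMIs in endothelial-like cells, 16 UMIs in 6 vehicle cells (3.08%) and 21 in 10 β-elemene cells (5.08%), which is 7.55 and 9.20 CPM. In these 16 cells Cd3g, Nkg7, Gzma, Gzmb and Prf1 had 0 UMIs, and Esm1, which encodes endocan of tip-like endothelial cells, was at 549 CPM against 26.3 in the other endothelial-like cells. They were deeper, with a median of 16528 UMIs against 8863.5. In GENCODE vM21 (GRCm38) Gzmk (chr13, 113171608 to 113225908, minus strand) overlaps Esm1 (113209659 to 113218098, plus strand). Without the strand setting of the counting, reads of the overlapping genes cannot be told apart, and the part of this in the Gzmk UMIs was not tested.

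The genes nearest in pattern to the members were ranked by Pearson's r of log2(CPM + 10) over 42 points, 21 cell types and sub-clusters in 2 libraries, among 17923 genes. The points share libraries and depth, so this is a description. Nearest to Prf1 were Xcl1 (0.949), Klre1 (0.943) and Klra5 (0.923), a chemokine and 2 NK receptors. Gzma had Klrc1 (0.886) and Nkg7 (0.882), and the sum of Gzmc to Gzmg had Klre1 (0.846) and Klra5 (0.822). Gzmk stood nearest to Ifi208 (0.926), Cd8b1 (0.896) and Cd8a (0.883), and Gzmb to Cd226 (0.886), an activating receptor of T and NK cells.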
